A study of Mus musculus with 160 samples.

Results

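The hearts of Q175 mice and of wild-type (WT) mice, all on vehicle, were compared, 16 of the 160 libraries of the series. Members were taken by tissue, genotype and treatment label, which gave 8 WT and 8 Q175 hearts, each group with 4 males and 4 females. Q175 mice (labelled Het knock-in) are heterozygous, with 1 Htt copy whose CAG repeat is lengthened as in Huntington's disease, and both genotypes are on the C57BL/6J background. Both groups received oral vehicle 2 times a day from 4 weeks of age and were 6 months old, so the WT mice went through the dosing as well. Each of the 32 animals of the study also gave striatum, cortex, tibialis and liver. Another 16 hearts came from Q175 mice given CHDI-00390576, an inhibitor of class IIa histone deacetylases, at 30 or 100 mg/kg, and served here for the estimate of the spread and as levels beside the comparison. Each library is 1 whole-tissue RNA sample of 1 animal, so fewer cells of a type and less RNA per cell cannot be told apart.

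Huntingtin, the product of Htt, is a large scaffold protein made in most tissues, and the repeat encodes a run of glutamines near its start. The disease is known for the loss of striatal neurons. Heart muscle also expresses the gene, and cardiac changes have been described in patients and in mouse models. A heart depends on contractile and calcium cycling proteins of the cardiomyocyte and on the burning of fatty acids in its mitochondria, and adult hearts under load are known to turn on genes of the fetal programme.

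The start of the mouse Htt coding sequence is shown because Q175 carries a lengthened CAG repeat at this place. It was read from a GENCODE vM21 transcript of the gene on chromosome 5 and runs 5′ to 3′ from the start codon. It is the mouse reference, and the sequence of the Q175 allele was not read. Capitals mark the glutamine codons of the normal mouse repeat, 6 CAG and 1 CAA, at codons 18 to 24.
Htt coding start: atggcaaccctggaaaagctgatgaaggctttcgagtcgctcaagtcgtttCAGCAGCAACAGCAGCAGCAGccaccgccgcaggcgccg

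Totals of the 16 libraries ranged from 34.7 to 40.9 M estimated counts (M for mega), and no columns were identical. Levels are counts per M of library total after TMM scaling (CPM), and a gene was called at an adjusted p under 0.05 in edgeR's quasi-likelihood test over all genes tested. Several libraries stood apart. The heart of the Q175 female F2 carried transcripts of B and T lymphocytes and of lymphoid tissue, that of the Q175 female F3 carried B cell and lung transcripts, and that of the Q175 female F4 held fewer long transcripts. Over genes with a mean above 5 CPM, long transcripts were set against short ones (log2 level, from the median of the 32 hearts). Their difference was −0.87 in F4 and −0.26 to 0.34 in the other 15 vehicle hearts. The summed level of 12 cardiomyocyte markers, among them Myh6, the main myosin heavy chain of the adult mouse heart, was 46969 to 60877 CPM in WT. It was 36765 CPM in F2 and 38715 CPM in F3, both below every WT heart. The TMM factors, by which levels are divided, were 1.263 in F2, 1.176 in F3 and 0.881 to 1.064 in WT. How much of the lower sums comes from this scaling was not tested. Fits without F2 and F3 were added after such levels had been seen.

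Htt was lower in most Q175 hearts, though not past the threshold. Htt levels had a lowest value of 19.7, a median of 27.6 and a highest value of 30.0 CPM in WT, and 10.5, 20.2 and 29.5 CPM in Q175. The ranges overlapped, with F2 at the top and F4 at the bottom of the Q175 group. The change was −0.39 ± 0.18 (log2 ± SE, unadjusted p = 0.0348, adjusted p = 0.411, edgeR). A two-sided exact permutation test of the mean log2 level of Htt alone, 8 against 8, gave p = 0.0166. That p is not adjusted for the other genes and takes no account of sex. With each library's long-minus-short difference as a covariate, Htt passed the threshold at −0.33 (adjusted p = 0.0498), the 1 of 39 alternatives in which it did and chosen after seeing the data. Without the libraries poor in long transcripts the Htt log2 fold change was −0.29 (adjusted p = 0.179), and without these and F2 and F3 it was −0.35 (adjusted p = 1). In the vehicle groups its lowest level stood in F4, the heart poorest in long transcripts. Mean Htt was 26.35 CPM in WT hearts, 21.3 at 30 mg/kg and 17.5 at 100 mg/kg. Hearts M3 and M4 at 100 mg/kg, also poor in long transcripts, had 11.07 and 6.735 CPM. In vehicle mice, WT and Q175 means were 129.6 and 98.4 CPM in striatum and 152.1 and 114.6 in cortex. They were 12.9 and 8.46 CPM in tibialis and 24.6 and 18.8 in liver, and the ranges overlapped in each tissue. Htt was not tested within these other tissues. The class IIa deacetylases, the targets of CHDI-00390576, are known to hold back MEF2 transcription factors in muscle, and none of the 4 was called. Hdac4 was 18.0 ± 2.82 CPM in WT and 17.7 ± 1.95 in Q175 (mean ± SD, n = 8). Hdac5 was 63.1 ± 8.27 and 58.9 ± 6.38 CPM, Hdac7 35.3 ± 3.87 and 34.8 ± 5.02, and Hdac9 20.4 ± 4.56 and 18.4 ± 4.59. Their log2 changes lay between −0.12 and −0.02, and the sign of each turned under some alternatives.

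Abhd1 was the 1 gene of 15979 called between the genotypes, 0.00626% of genes. It was higher in Q175 hearts. Abhd1 is a gene of the alpha/beta hydrolase family on chromosome 5, annotated as a transcribed pseudogene by RefSeq and as a processed transcript by GENCODE. Its level in WT had a lowest value of 0.958, a median of 1.90 and a highest value of 3.37 CPM. In Q175 the corresponding values were 6.14, 8.10 and 12.5 CPM. Every Q175 heart lay above every WT heart, which held for 3 genes, 0.0188% of those tested. Abhd1 rose 4.53-fold, from 1.97 ± 0.80 to 8.54 ± 2.25 CPM (log2 2.18 ± 0.32, adjusted p = 0.00211, edgeR). Without F2 and F3 the change in Abhd1 was 2.17 ± 0.34 (adjusted p = 0.0146). Without these 2 hearts and those poor in long transcripts it was 1.95, no longer past the threshold (adjusted p = 0.215).

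The gene body of Abhd1 shares 4239 of its 5026 bases with Preb, which lies on the opposite strand and encodes a factor of vesicle budding at the endoplasmic reticulum. It is not stated whether reads were counted by strand, so reads from the 2 genes may not be told apart. Preb was 42.2 ± 2.70 CPM in WT and 39.6 ± 2.61 in Q175, a change of −0.09 ± 0.05 (adjusted p = 0.483), and its 2 groups overlapped.

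**Figure D1:**
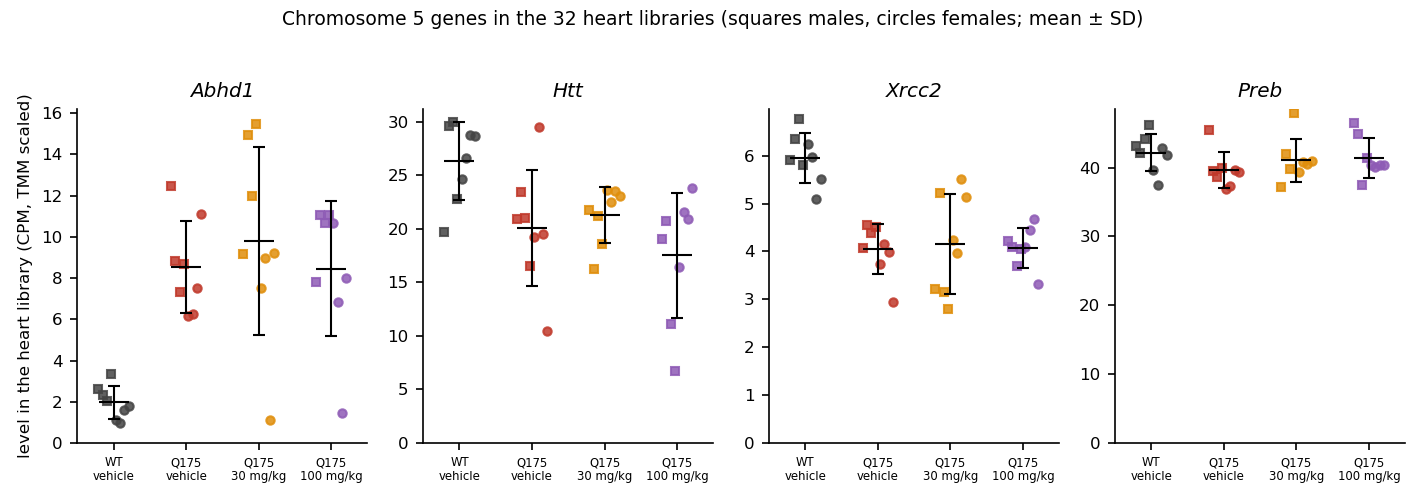
Levels of Abhd1, Htt, Xrcc2 and Preb in CPM (vertical axes) in the 32 heart libraries by group (horizontal axis); squares are males, circles females, and bars the mean ± SD of 8 libraries. All 8 Q175 vehicle hearts lie above all 8 WT hearts for Abhd1 and below them for Xrcc2, while Preb has a mean of 42.2 CPM in WT and 39.6 in Q175 vehicle hearts.

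The rise of Abhd1 was also seen in most hearts of the dosed Q175 mice, with 1 exception in each dose group. At 30 mg/kg the level of Abhd1 was 9.80 ± 4.56 CPM and at 100 mg/kg 8.45 ± 3.29. The female F3 at 30 mg/kg had 1.12 CPM and the female F3 at 100 mg/kg had 1.47 CPM, both within the WT range. The other 22 Q175 hearts, vehicle included, ranged from 6.14 to 15.5 CPM, above every WT heart. The liver of the same animals showed the same split. Liver levels of Abhd1 were 1.61 and 2.54 CPM in these 2 females, 1.23 to 2.72 in WT and 16.9 to 32.02 in the other 22 Q175 mice. In the striatum these 2 females had 1.60 and 0.614 CPM, below the other 22 Q175 mice at 1.73 to 5.05, and WT mice had 0.814 to 1.52. In the cortex they had 1.26 and 1.13 CPM, inside the WT range of 0.571 to 1.54, where 1 of the other 22 Q175 mice also lay. In the tibialis, the other striated muscle of the series, they had 0.204 and 0.0539 CPM. There 10 of the other 22 Q175 mice lay within the WT range, whose top was set by the WT animals F4 (1.41 CPM) and M1 (0.929). The next WT level in tibialis was 0.461 CPM, in M4, and the lowest of the other 22 Q175 mice had 0.678 CPM. So 2 animals labelled Q175 were within the WT range of Abhd1 in heart and liver, where none of the other 22 was. Their heart Htt was 23.5 and 20.9 CPM, inside both the WT and the Q175 vehicle range. Neither animal is in the vehicle comparison, where all 8 Q175 animals were high in heart and liver. What sets them apart was not tested.

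**Figure D2:**
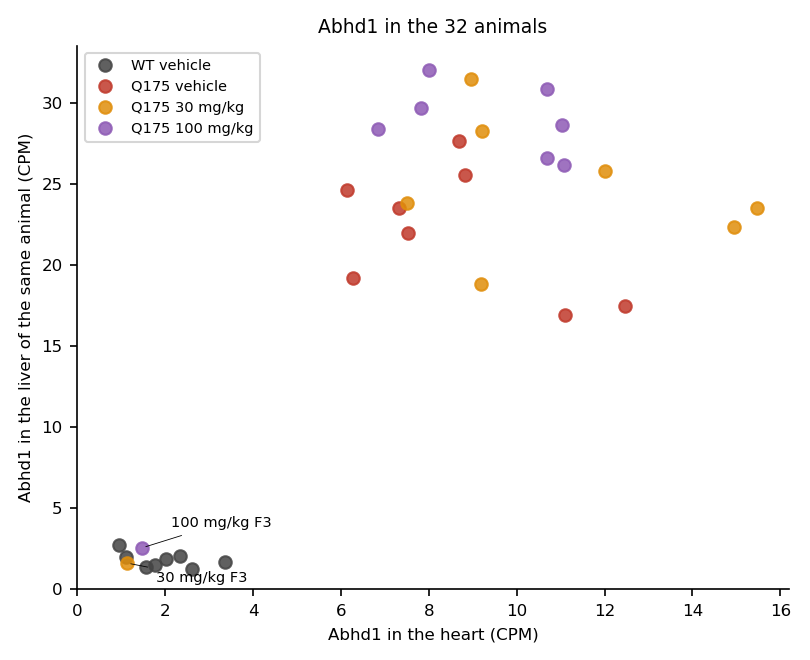
Abhd1 in the heart (horizontal axis, CPM) against Abhd1 in the liver (vertical axis, CPM) of the same 32 animals, 1 point per animal, coloured by group. The 8 WT animals and the females F3 of both dose groups lie at the lower left, and the other 22 Q175 animals lie above 6 CPM in heart and 16 CPM in liver.

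Other genes of chromosome 5 stood among those with the smallest p. Of the 50 genes with the smallest p, 6 lay on this chromosome, which holds 6.07% of the tested genes with a known chromosome. Xrcc2, which encodes a protein of DNA break repair, was lower in Q175. Its level in WT had a lowest value of 5.09, a median of 5.95 and a highest value of 6.77 CPM, and in Q175 2.96, 4.12 and 4.56 CPM. The groups of Xrcc2 did not overlap, and every Q175 heart was the lower one. Such a full separation downward was found for 3 genes, 0.0188% of those tested. The change in Xrcc2 was −0.56 ± 0.12 (adjusted p = 0.176, edgeR), and DESeq2 called it (adjusted p = 0.00495). At 30 and 100 mg/kg Xrcc2 was 4.16 ± 1.05 and 4.07 ± 0.42 CPM. The females F3 of the dose groups, within the WT range of Abhd1, had the highest Xrcc2 of each group, at 5.51 and 4.68 CPM. The first lay within the WT range of Xrcc2 and the second below it. M2 and F4 at 30 mg/kg, both high in Abhd1, also lay within that range, at 5.23 and 5.14 CPM. Actr3b, which encodes an actin-related protein of the Arp2/3 kind, was 26.8 ± 4.65 CPM in WT and 20.1 ± 3.69 in Q175. Its change was −0.42 ± 0.10 (adjusted p = 0.231, edgeR), and DESeq2 called it (adjusted p = 0.0249). Counted along the tested genes of chromosome 5, Abhd1 stood 58 genes from Htt, Actr3b 86 and Xrcc2 87, all on the same side. Otof, the otoferlin gene of the inner ear, is also on chromosome 5 and was chosen after its values were seen. Its level was 0 to 0.109 CPM in WT and 0.114 to 0.435 in Q175 (adjusted p = 0.231). Among the other genes whose groups did not overlap was Blzf1, also chosen after its values were seen and lower in Q175 (adjusted p = 0.234). Of 29 tested genes in a list of genes near Htt, the 1 called was Abhd1 itself. Abhd1 had been put in that list by name, so this count adds nothing to its own call. The median of the list was −0.01 against 0.01 over all genes.

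The gene with the next smallest p was 2900052N01Rik, a transcript without a gene name, at 0.290 to 0.546 CPM in WT and 0.582 to 1.365 in Q175, so that its groups did not overlap either. Its difference was 1.11 ± 0.20, just short of the threshold (adjusted p = 0.0563, edgeR). It was called in several alternatives, among them upper quartile scaling, the fit without the sex term and DESeq2. The genes with a name and at least 1 CPM that had the smallest p after Abhd1 had adjusted p from 0.176 to 0.231 with edgeR. None of them is called in that fit. DESeq2, which called 88 genes, called all those named in this and the next paragraph. Its adjusted p for them ran from 0.00396 for Ankrd46 to 0.0340 for Tbc1d25 and Abcg1, so their calls depend on the method. Among those lower in Q175, Abat, the enzyme that breaks down the transmitter GABA, had 21.2, 26.0 and 31.8 CPM in WT (lowest, median, highest) and 14.6, 19.5 and 24.0 in Q175. Slc25a34, a mitochondrial carrier, had 104.4, 138.9 and 168.1 CPM in WT and 85.7, 96.5 and 118.8 in Q175. Ogdhl, a relative of the oxoglutarate dehydrogenase of the citrate cycle, had 70.1, 111.1 and 142.4 CPM in WT and 39.0, 80.0 and 112.1 in Q175. In each of the 3 the groups overlapped. Their changes were −0.47 ± 0.10 for Abat, −0.46 ± 0.11 for Slc25a34 and −0.50 ± 0.12 for Ogdhl. Hr, which encodes the nuclear receptor corepressor hairless, was 13.8 ± 2.73 CPM in WT and 9.54 ± 2.06 in Q175. Mitf, a transcription factor best known from pigment cells and also present in heart, was 43.0 ± 2.30 and 35.2 ± 4.58 CPM. Ankrd46, an ankyrin repeat gene, had a small difference with little spread, 33.9 ± 1.09 CPM in WT and 29.9 ± 1.37 in Q175 (−0.18 ± 0.04).

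Among those with a higher level in Q175, Klf16, a zinc finger transcription factor, was 3.02 ± 0.35 CPM in WT and 4.04 ± 0.74 in Q175. Irak2, a kinase of interleukin-1 signalling, was 8.92 ± 0.95 and 11.2 ± 1.58 CPM. Tmem198b was 6.26 ± 0.51 and 7.63 ± 0.76 CPM, and Tbc1d25, a regulator of Rab proteins, 2.76 ± 0.16 and 3.49 ± 0.44. Cables1, a linker of Cdk5 and Abl, was 4.603 ± 0.83 and 6.42 ± 1.63 CPM, and Pafah1b3, of the platelet-activating factor hydrolase, 1.12 ± 0.15 and 1.89 ± 0.68. Abcg1, a cholesterol exporter, had 1.89, 2.38 and 3.02 CPM in WT and 2.54, 3.10 and 10.7 in Q175, where the highest value was that of F2. Without F2 and F3 the change in Abcg1 went from 0.74 to 0.35, and that in Pafah1b3 from 0.73 to 0.53. The other genes of this rank belong to lymphocytes and are given with the lymphocyte transcripts.

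**Figure D3:**
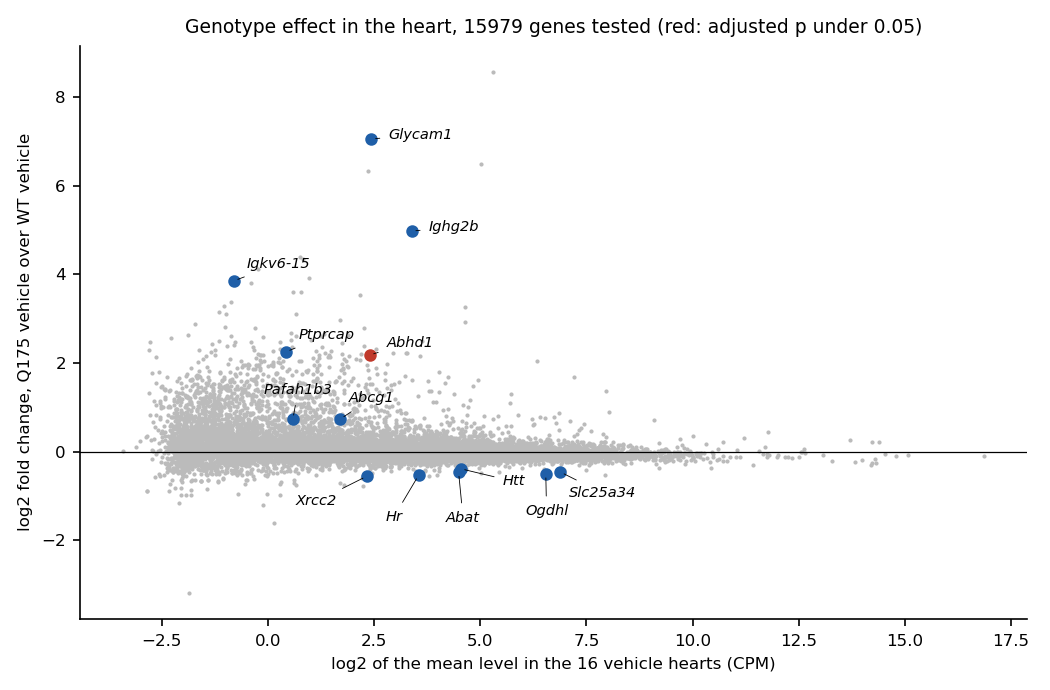
The log2 fold change of Q175 over WT (vertical axis) against the log2 mean level in CPM over the 16 vehicle hearts (horizontal axis), 1 point per gene for 15979 genes. Abhd1 (red), at 2.18, is the called gene, and blue points are genes named in the text, of which Glycam1, Ighg2b and Igkv6-15 have their highest level in the Q175 heart F2.

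In total 52 gene lists were described, 27 of pathways and 25 of cell types. Their members were read by the count at an unadjusted p under 0.05, which held for 7.5% of all genes on the higher and 3.7% on the lower side, and by their median log2 change, set beside 0.01 over all genes. Without F2 and F3 these shares were 1.99% and 1.25%. No list member but Abhd1 was called.

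Among contractile genes no member stood out. Of 28 sarcomere and Z disc genes, 0 were higher and 0 lower at an unadjusted p under 0.05, and their median was −0.05 (0.06 without F2 and F3). Myh6 was 17315 ± 2686 CPM in WT and 15177 ± 3046 in Q175, a change of −0.19 ± 0.15. Myom1, which encodes myomesin of the M band, was 985.9 ± 120 and 860.2 ± 201 CPM. Myl7 and Myl4, the atrial light chains, had medians of 333.6 and 422.2 CPM in WT and 333.5 and 451.9 in Q175. The WT heart M4 was far below the others, at 61.6 CPM of Myl7 and 82.4 of Myl4, and its 12 atrial markers summed to 547.7 CPM against a WT median of 2403.

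Genes of calcium cycling were on the lower side while F2 and F3 were included. Of 20 members, 7 were lower and 0 higher at an unadjusted p under 0.05, with a median of −0.15. With F2 and F3 left out, 0 were lower and the median was −0.04. F2 and F3 also had the lowest sums of cardiomyocyte markers, and the part of this in the counts was not tested. Atp2a2, the pump that returns calcium to the sarcoplasmic reticulum, was among the 7, named after its values were seen, at 10712 ± 752 CPM in WT and 9215 ± 1496 in Q175. Hrc, a calcium-binding protein of the sarcoplasmic reticulum, had 605.7, 688.2 and 854.5 CPM in WT and 426.1, 644.2 and 684.3 in Q175. Its difference of −0.23 ± 0.09 became −0.11 without the 2 hearts. The difference for Cacna2d1, a calcium channel subunit, was −0.25 ± 0.08, and −0.14 without them. Of 31 ion channel and gap junction genes 2 were lower, with a median of −0.09. Without F2 and F3, 3 were higher and 1 lower, and the median was −0.003. Scn4b, a sodium channel subunit, was 37.2 ± 8.53 CPM in WT and 27.3 ± 12.8 in Q175 (−0.49 ± 0.16, and −0.36 without the 2 hearts). Of 26 genes of autonomic receptors and cAMP signalling 2 were higher and 1 lower, the last being Adrb1, the main beta receptor of the heart, at 7.47 ± 1.05 and 6.32 ± 1.07 CPM. Of 18 cardiac transcription factors 1 was lower, Gata4, at 75.1 ± 4.73 CPM in WT and 64.8 ± 10.1 in Q175.

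Of 41 tested genes of fatty acid uptake, oxidation and PPAR targets, 8 were lower and 1 higher at an unadjusted p under 0.05. The median was −0.12. Without the 2 hearts 5 were lower and 1 higher, and the median was −0.05. Among the lower members, named after their values were seen, were Cpt2, Acadm, Hadha, Hadhb, Etfdh, Cd36 and Mlycd, with differences from −0.21 to −0.14. Hadha and Hadhb, the subunits of the mitochondrial trifunctional protein of beta oxidation, were 1137 ± 99.2 and 1916 ± 84.7 CPM in WT and 984 ± 147 and 1669 ± 235 in Q175. Cd36, the fatty acid transporter of the cell membrane, was 1635 ± 160 and 1430 ± 242 CPM. The members with the largest negative differences did not pass, at an unadjusted p of 0.157 for Ucp3 and 0.261 for Pdk4. Ucp3, the uncoupling protein of muscle, had 25.9, 57.5 and 69.1 CPM in WT and 17.1, 34.8 and 65.0 in Q175. Pdk4, the kinase that shuts off pyruvate dehydrogenase, had 291.7, 762.1 and 925.8 CPM in WT and 206.3, 499.7 and 835.3 in Q175. The ranges of both genes overlapped over most of their width. The 1 higher member was Ppargc1a, the coactivator of mitochondrial biogenesis, at 132 ± 18.8 CPM in WT and 175.7 ± 60.3 in Q175, highest in F1 at 288.1 CPM (0.39 ± 0.17, adjusted p = 0.378). Of 74 nuclear genes of oxidative phosphorylation 2 were lower, Ndufs1 and Sdha, and the median was 0.01. Sdha, a subunit of complex II, was 1361 ± 56.3 CPM in WT and 1231 ± 152 in Q175. Of 31 genes of glucose use 2 were lower, and of 13 protein-coding genes of the mitochondrial genome 0 were lower or higher. In F4, mt-Atp6, a subunit of the ATP synthase, reached 34639 CPM against 10491 to 16314 in WT.

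Few stress genes of the cardiomyocyte were on either side. Of 14 tested fetal and stress genes 1 was higher, Ccn2, a matrix growth factor, with 51.3, 95.4 and 128.9 CPM in WT and 97.9, 123.9 and 200.1 in Q175 (0.49 ± 0.16). Nppa, the atrial natriuretic peptide, was 1200 ± 435 CPM in WT and 1361 ± 367 in Q175. The immediate early genes, which react within minutes to stimuli, had a median of 0.22, and 7 of 25 were higher. The median was 0.21 and 2 were higher without F2 and F3. Nr4a3, a nuclear receptor of this class, was 7.53 ± 2.65 CPM in WT and 11.9 ± 6.92 in Q175, and Egr1, a zinc finger factor, 10.5 ± 3.43 and 16.1 ± 13.9. Both were highest in F1, at 23.7 and 50.01 CPM, and Egr1 was not among the 7 (unadjusted p = 0.0689). Socs3, an inhibitor of cytokine signalling named after its values were seen, was among them, at 3.60 ± 0.42 and 4.95 ± 1.74 CPM. Of 30 genes of the unfolded protein and integrated stress response 3 were higher and 2 lower. Mthfd2, a mitochondrial folate enzyme of that response, was 1.46 ± 0.26 and 2.44 ± 0.99 CPM, and Hspa5, the chaperone BiP, 615.3 ± 154 and 507.5 ± 58.3. Of 27 MEF2 factors and targets 1 was higher and 2 lower, with a median of −0.08 (0.02 without F2 and F3). Of 20 histone deacetylases and sirtuins 0 were higher or lower. Of 23 genes of Htt and its partners 1 was higher and 3 lower, among the last Bdnf, the brain-derived neurotrophic factor, with 6.27, 6.99 and 9.64 CPM in WT and 4.47, 5.604 and 6.88 in Q175 (−0.41 ± 0.14, and −0.38 without the 2 hearts).

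The other pathway lists had few members on either side. Of 76 cytosolic ribosomal proteins 0 were higher or lower, with a median of 0.14. Of 38 matrix genes 3 were higher and of 19 p53 targets 3, among them Trp53inp1, a mediator of stress-induced autophagy, with 13.8 to 17.6 CPM in WT and 17.2 to 37.4 in Q175, highest in F2. Of 26 heat shock chaperones 2 were lower, Hspd1 among them, the mitochondrial HSP60, with a median of 334.4 CPM in WT and 306.8 in Q175. Clock genes, antioxidant genes and developmental genes silent in the adult had 1 higher member each, and atrophy and autophagy genes 0. The medians of 10 lists, all near 0, turned sign in limma on the deposited FPKM, those of cardiac transcription factors, deacetylases and sirtuins, Htt partners and genes near Htt among them.

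**Figure D4:**
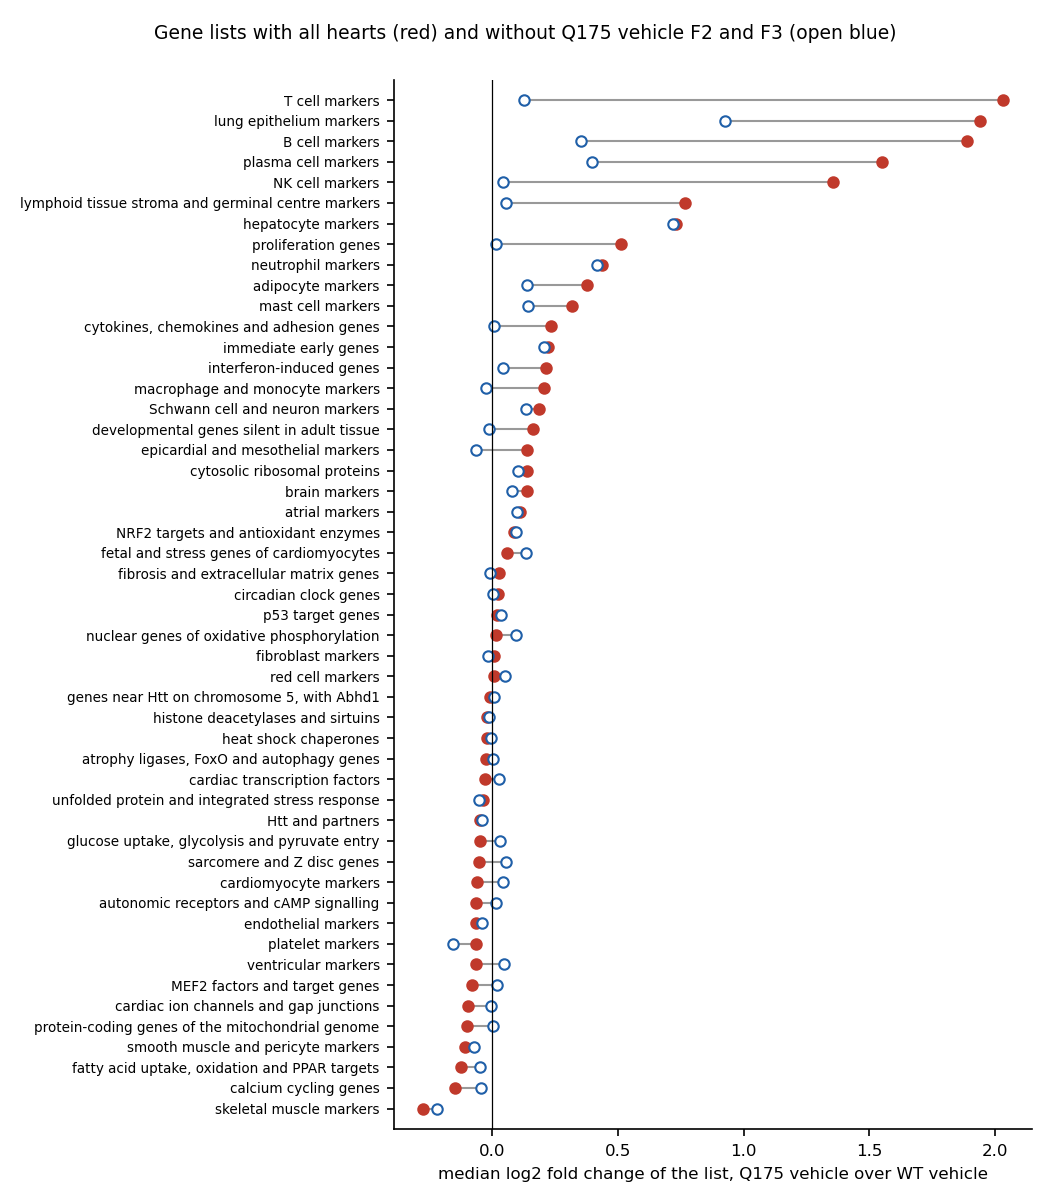
Median log2 fold change of Q175 over WT (horizontal axis) for each gene list with at least 5 tested members (rows), with all hearts (red) and without the Q175 vehicle hearts F2 and F3 (open blue). T cell markers go from 2.03 to 0.13, B cell markers from 1.89 to 0.35 and calcium cycling genes from −0.15 to −0.04.

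T cell, lung and B cell lists had the highest medians of the 52, and the lymphocyte transcripts were concentrated in F2. Cd79a, a subunit of the B cell receptor, had 0.776, 2.02 and 3.54 CPM in WT and 0.898, 3.95 and 46.3 in Q175, where F2 had 46.3 and F3 12.4 CPM. The sum of 17 B cell markers was 25.3 to 48.4 CPM in WT, 25.8 to 51.9 in the other 6 Q175 hearts, 116.1 in F3 and 492.9 in F2. T cell markers were also highest in F2, with a sum of 319.8 CPM against 13.5 to 18.2 in WT and 36.8 in F3. Cd3e, of the T cell receptor complex, was 9.72 CPM in F2 and 0.175 to 0.365 in WT. Plasma cell markers, with the antibody genes among them, summed to 852.7 CPM in F2, 434.6 in F3, 86.3 to 208.8 in the other 6 Q175 hearts and 68.8 to 165.1 in WT. Their Q175 median of 177.9 CPM lay above the highest WT heart. Lymphoid stroma genes were at 334.2 CPM in F2 and 38.9 to 54.6 in WT, and among them Ccl21a, the chemokine that draws lymphocytes into lymph nodes, was 117.7 CPM in F2 and 13.3 to 21.1 in WT. Glycam1, a mucin of the vessels through which lymphocytes enter lymph nodes, was 84.4 CPM in F2, 0 to 0.289 in WT and had a median of 0.232 in Q175. Rag2, which marks developing lymphocytes of the thymus and marrow, was at 0 in all 16 hearts, and Rag1 reached at most 0.0285 CPM in Q175.

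**Figure D5:**
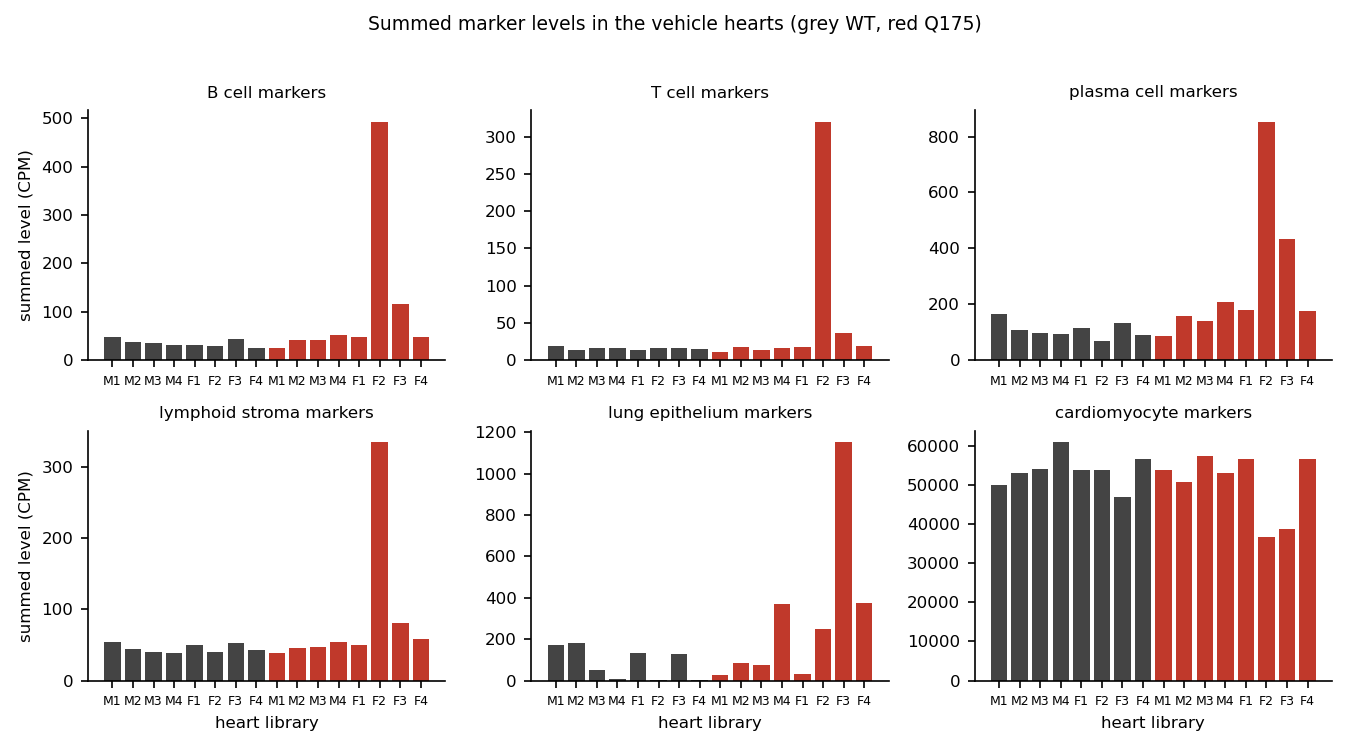
Summed levels in CPM (vertical axes, each from 0) of 6 marker lists in the 16 vehicle hearts, 1 bar per library, grey for WT and red for Q175. F2 stands above the rest for B cell, T cell, plasma cell and lymphoid stroma markers, F3 for lung epithelium markers, and F2 and F3 have the lowest cardiomyocyte sums.

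The list counts are given with and without F2 and F3. The same markers had set these hearts apart, so lower counts without them were fixed in advance for lymphocyte and lung lists. With all hearts 16 of 17 B cell, 19 of 20 T cell, 7 of 9 plasma cell and 5 of 8 lung epithelium markers were higher at an unadjusted p under 0.05. The counts were 1, 1, 3 and 0 without F2 and F3. The medians went from 1.89 to 0.35 for B cells, from 2.03 to 0.13 for T cells, from 1.55 to 0.40 for plasma cells and from 1.94 to 0.92 for lung. Interferon-induced genes were higher for 14 of 35 members with all hearts and for 0 without the 2. Proliferation genes were higher for 13 of 29, and for 2 without them. Mki67, the marker of dividing cells, was 18.1 CPM in F2 and 2.24 to 3.13 in WT. Cytokine, chemokine and adhesion genes were higher for 5 of 26 members, and for 1 without the 2 hearts, and macrophage markers for 2 of 17, and for 0. Ighg2b and Igkv6-15, antibody gene segments of families whose members share sequence, and Ptprcap, a partner of the lymphocyte phosphatase CD45, had medians of 0.300, 0.0428 and 0.346 CPM in WT and 1.81, 0.353 and 0.848 in Q175. In F2 they were at 115.8, 5.81 and 11.9 CPM. The higher antibody levels were not limited to F2, since Ighg2b was 34.5 CPM in F3, 6.56 in F4, 1.84 in M3, 1.77 in F1 and 1.65 in M4, all above the highest WT heart at 1.51. Without F2 and F3 the difference for Igkv6-15 was 2.62 ± 0.73 (adjusted p = 0.999, edgeR).

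Lung transcripts were highest in F3 and not limited to it. The sum of lung epithelium markers was 1151 CPM in F3, 374.5 in F4, 367.9 in M4 and 249.6 in F2. The highest WT heart had 181.7 CPM, and the remaining Q175 vehicle hearts lay within the WT range. Scgb1a1, secreted by club cells of the airways, was 873.7 CPM in F3, against 0 to 148.4 in WT and a Q175 median of 131.5. Sftpc, the surfactant protein of alveolar cells, was 75.2 CPM in F3 and 0 to 0.541 in WT. The same heart had the highest sums of mesothelial markers, at 237.7 CPM against 64.5 to 112.8 in WT, and of adipocyte markers, at 2237 CPM against 349.2 to 2108. The medians of fibroblast, endothelial and smooth muscle markers were 0.01, −0.06 and −0.11, and 0 members of each passed an unadjusted p under 0.05. Of the remaining cell type lists, NK cell markers were higher for 3 of 5, thymus for 3 of 4, lymphoid stroma for 6 of 9 and Schwann cell and neuron markers for 4 of 14, and without F2 and F3 for 0, 0, 2 and 3. Neutrophil, red cell, platelet, mast cell, hepatocyte and brain markers had 0 members on either side. Among liver genes, Alb, the albumin gene, was 24.7 CPM in F4 and 0 to 2.02 in WT.

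The effect of genotype was also estimated in each sex. In males 0 of 15979 genes were called with edgeR (0% of genes, and 264 at an unadjusted p under 0.05). In females 700 genes were higher and 170 lower, 4.38% and 1.06% of genes. Among them were 16 of 17 B cell and 19 of 20 T cell markers, 13 of 29 proliferation genes and 12 of 35 interferon-induced genes, all higher. The lower calls held 4 of 41 fatty acid genes and 2 of 20 calcium cycling genes. They also held 2 of 27 MEF2 factors and targets, 2 of 74 oxidative phosphorylation genes and 2 of 26 heat shock chaperones. Of 28 sarcomere, 14 fetal and stress and 31 glucose genes, 1 each was a lower call. Without F2, 0 genes were called in females (0%), and those at an unadjusted p under 0.05 numbered 3104 against 3636 with it, while leaving out any other female heart left 328 to 2409. The number was 328, 455 and 427 without WT F1, F2 and F4, 2409 without Q175 F1 and 525 without Q175 F3. The list medians in females went down less than the calls without F2, from 3.26 to 1.73 for B cell and from −0.30 to −0.23 for calcium cycling genes, and those of lung and macrophage markers went from 2.995 to 3.148 and from 0.59 to 0.65. The difference of the effect between the sexes was called for 0 of 15979 genes with edgeR (0%, and 1925 at an unadjusted p under 0.05) and for 110 with DESeq2. It was called for 569 genes without the Q175 heart F1 and for 225 without F4. Abhd1 was higher in both sexes, by 1.85 ± 0.45 in males (adjusted p = 1) and 2.51 ± 0.47 in females (adjusted p = 0.0068), and the sexes did not differ past the threshold (0.66, adjusted p = 0.713). The difference for Htt was −0.32 ± 0.25 in males and −0.46 ± 0.25 in females. B cell markers had a median of 0.10 in males and 3.26 in females, and calcium cycling genes 0.01 and −0.30.

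The 16 vehicle animals each gave striatum and tibialis as well, so the heart effect could be set against theirs within animals. Against striatum, 45 of 14636 genes differed in their genotype effect, 0.307% (limma, 30 with a higher and 15 with a lower effect in heart). The smallest adjusted p was that of ENSMUSG00000029333, which matched no symbol (1.015 ± 0.079, adjusted p = 1.4e-05, limma). Xrcc2 was also among the 45 genes. Its genotype effect was lower in heart than in striatum by −0.62 ± 0.09 (adjusted p = 0.00734). Striatal levels of Xrcc2 had a median of 6.94 CPM in WT and 6.97 in Q175, while in heart they were 5.95 and 4.12. In tibialis they were 4.74 and 3.98 CPM, and in liver 1.69 and 1.52. Abhd1 and Htt did not differ past the threshold, at 0.52 ± 0.25 (adjusted p = 0.382) and −0.05 ± 0.17 (adjusted p = 0.924). For others the heart itself held little difference between genotypes. Ddit4l, an inhibitor of mTOR signalling, had a heart minus striatum difference of 1.65 ± 0.20, with a genotype effect in heart of 0.07. For Jag1, a Notch ligand, these were 0.86 ± 0.10 and 0.04. Wt1, a zinc finger factor that also marks the epicardium, had a difference of −4.13 ± 0.64 against 0.14 in heart, and Tnnt2, the cardiac troponin T, −1.07 ± 0.17 against −0.01. Against tibialis, 0 of 14029 genes differed with limma (0%, and 510 at an unadjusted p under 0.05). Abhd1 differed by −0.22 ± 0.40 and Xrcc2 by −0.25 ± 0.12 there. These SE were larger than against striatum (0.25 and 0.09), so 0 calls against tibialis do not show equal effects. The number of genes called against striatum was 6 without the WT animal F4 and at most 42 with 1 animal left out, and 14 without F2 and F3.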

How the data were processed

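Total RNA of frozen tissue was made into Illumina libraries, per the labels. The submitters' processing notes list CASAVA 1.8.2, and no aligner, genome build, annotation or strand setting was given in the sources used. The authors deposited estimated counts and FPKM for 43432 Ensembl genes, of which 42462 matched a symbol. The estimated counts were rounded. In R 4.3.3, edgeR 4.0.16 (filterByExpr, TMM, robust quasi-likelihood, terms for group and sex) was fitted to all 32 heart libraries, with Benjamini-Hochberg adjustment and a threshold of 0.05. The effect in heart was set against another tissue with limma 3.58.1 on within-animal differences of log2 CPM (a prior count of 2). Alternatives used DESeq2 1.42.0, limma on the deposited FPKM, and sva 3.50.0. The scripts were tested on simulated counts. Genes named were Htt, the class IIa deacetylases, called genes, those of smallest p up to 20, and examples with the largest changes in each list among genes of at least 1 CPM; others are marked as chosen after their values were seen or are markers. The members and lists were chosen with earlier results of these data known. Totals of 33.5 to 41.7 M per heart leave sampling error mainly in genes near 0 CPM. Single genes that passed a count are in part not reported here.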

Additional observations from a re-analysis of the deposited data

Results flagged for a closer look

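In groups of 8, the highest or lowest library was compared with its nearest neighbour by Dixon's test (critical value 0.526). Over 104 groups of values, 20 stood apart. Chance gives about 5% only for independent groups with a normal spread. Here most genes were picked by small p and some lists share members, so that rate is no yardstick. Of the 20 that stood apart, 11 were the Q175 vehicle heart F2. They were Glycam1 (84.4 CPM), Igkv6-15 (5.81), Ighg2b (115.8), Ptprcap (11.9) and Abcg1 (10.7), and the summed markers of B cells (492.9 CPM), plasma cells (852.7), T cells (319.8), NK cells (30.3), thymus (49.5) and lymphoid stroma (334.2). F3 stood apart for Cables1 (10.2 CPM) and for the sums of mesothelial (237.7 CPM) and lung epithelium markers (1151). F4 stood apart for its long-minus-short transcript difference (−0.87), and Q175 M1 for its skeletal muscle sum (44.2 CPM). In WT, F1 had the highest Hr (19.7 CPM), F3 the highest Glycam1 (0.289 CPM) and M4 the lowest atrial sum (547.7 CPM). At 100 mg/kg, F3 had the lowest Abhd1 (1.47 CPM). The genotype effect on Xrcc2 differed between heart and striatum by −0.62 (limma, adjusted p = 0.00734).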

How the results depend on the processing

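The genotype comparison called 1 gene, and Abhd1 was called in 37 of 39 alternatives, all but males only and the fit without both F2 and F3 and the hearts poor in long transcripts. The number of genes called was 2 with upper quartile scaling and 2 without the sex term, 3 with the 16 vehicle libraries alone, 3 without libraries over another tissue's limit and 3 with 2 surrogate variables. It was 88 with DESeq2, 0 in males only and 870 in females only. Alternatives chosen after seeing the data gave 1 without F2 and F3 and 5 without libraries poor in long transcripts. They gave 5 with the long-minus-short difference as a covariate and 0 without both kinds of libraries. Leaving out 1 replicate gave 1 to 4. The sex difference was called for 110 genes with DESeq2 and 181 without the libraries poor in long transcripts, and for 0 to 569 with 1 replicate left out. In females 0 were called without F2 and F3, and 0 to 2409 with 1 replicate left out. Against striatum 28 genes were called with a prior count of 0.5, 29 without the library over the B cell limit, 14 without F2 and F3, and 6 to 42 with 1 animal left out. The count against tibialis was 0 in all 20 alternatives. The cause of these moves was not tested. Medians over all genes shifted to at most 0.05, with 67.8% of genes above 0 in limma on log2(FPKM + 0.1) against 54.3%.

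Differences of the deacetylases turned positive in some alternatives. The Hdac4 log2 fold change was 0.0367 with the B cell sum as a covariate, 0.0691 with 2 surrogate variables, 0.00556 without the libraries poor in long transcripts and 0.0152 with the long-minus-short difference as a covariate, and −0.0717 to 0.0513 with 1 replicate left out. The Hdac5 log2 fold change was 0.0209 in limma on log2(FPKM + 0.1), with or without a filter, and 0.0198 on log2(FPKM + 1). It was 0.00774 with the B cell sum, 0.0399 with 2 surrogate variables, 0.00295 in males and 0.0093 without both kinds of libraries. The Hdac7 log2 fold change was 0.0599 in limma on log2(FPKM + 0.1), with or without a filter, and 0.0565 on log2(FPKM + 1). It was 0.0292 with 2 surrogate variables, 0.0536 in females and 0.0283 without the libraries poor in long transcripts, and −0.0649 to 0.033 with 1 replicate left out. The Hdac9 log2 fold change was 0.024 with 2 surrogate variables, 0.221 in males and 0.148 without both kinds of libraries.

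The replicate numbers of the labels did not pair the samples: correlations of deviations between same-numbered hearts ran from −0.311 to 0.48, and 1 of 8 correlated best with its own number. With the replicate block 1 gene was called, and the Abhd1 log2 fold change was 2.20 (adjusted p = 0.00287, edgeR).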
